A study of Mus musculus with 16 samples.

Results

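TGF beta, activin and BMP signalling was followed as 49 genes of the 45777 in the deposited table, chosen by symbol: ligands, the proteins that hold or bind them outside the cell, receptors and Smads. By role they were 3 TGF beta ligands, 4 latent complex proteins, the matrix protein Tgfbi, 2 activin subunits, 10 BMP and GDF ligands, the protease Bmp1, 5 receptors or co-receptors of TGF beta, 8 receptors of activins and BMPs, 7 extracellular antagonists and 8 Smads (5 receptor Smads, Smad4 and 2 inhibitory Smads). All 49 had enough counts to be tested. The RNA is of the epididymal white fat pad, a visceral depot, of male mice that overexpress LTA4H in adipocytes (OE) and of control mice (Ctrl). The enzyme, leukotriene A4 hydrolase, makes the inflammatory lipid leukotriene B4. There were 4 mice in each of 4 groups: OE at 20 weeks of age after 16 weeks of high-fat diet, Ctrl at 20 weeks after 16 weeks of the diet, OE at 8 weeks after 4 weeks of the diet, and Ctrl at 8 weeks after 4 weeks of the diet. Every mouse ate the diet, which held 60 kcal% fat, from 4 weeks of age, so no lean group is among these libraries, and age, the length of the diet and any batch tied to age cannot be told apart. The labels give the overexpression as adipocyte-specific without naming the promoter that drives it, and call the other mice controls without describing their genotype further.

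Ligands of this family are secreted dimers that bring together type I and type II serine and threonine kinase receptors. TGF betas and activins lead to phosphorylated Smad2 and Smad3, BMPs to Smad1, Smad5 and Smad9, and each set enters the nucleus with Smad4, while Smad6 and Smad7 hold the pathway back. TGF beta is laid down in the matrix in a latent complex and must be released, and antagonists such as noggin, gremlin and follistatin bind BMPs or activins before they reach a receptor. In fat, TGF beta is known for driving fibrosis and restraining adipogenesis, BMP4 for committing progenitors to the adipocyte lineage, and the receptor ALK7 for holding back lipolysis in adipocytes.

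Library totals ran from 33.6 to 67.6 M counts. Lta4h, the overexpressed gene, had 270.3, 286, 278 and 239 CPM in OE and 95.4, 82.4, 89.0 and 87.3 CPM in Ctrl at 20 weeks (log2 fold change 1.60 ± 0.14, adjusted p = 0.000145). At 8 weeks it had 398, 251, 427 and 335 CPM in OE and 104, 79.4, 85.4 and 90.0 CPM in Ctrl (log2 fold change 1.98 ± 0.14, adjusted p = 2.08e-05), so the labels and the gene went together at both ages. CPM are counts per 1000000 counts of the library after TMM scaling, and values of a group follow its libraries 1 to 4. An error after a log2 fold change is an approximate standard error. It is the size of the log2 fold change divided by the square root of edgeR's quasi-likelihood F. P-values are adjusted by Benjamini-Hochberg over the 19189 genes tested, with a call at under 0.05. Positions are RefSeq gene spans on GRCm38.p6, the assembly also named mm10. Mature adipocyte markers, which define the main cell of the tissue, summed to 12519 to 22659.6 CPM in OE and 9685 to 17009.7 CPM in Ctrl at 20 weeks, against 14314 to 27891 and 16115 to 26228 CPM at 8 weeks, and all 8 were detected in every group. The 10 macrophage markers summed to 3311 to 8844 CPM in OE and 5254 to 9173 CPM in Ctrl at 20 weeks, against 1071 to 1993 and 901 to 1477 CPM at 8 weeks. Sums of the 8 stromal markers ran 4766 to 9875 CPM in OE and 5616 to 8424 CPM in Ctrl at 20 weeks, against 3977 to 6054 and 3645 to 5078 CPM at 8 weeks, and those of the 7 endothelial markers ran 574 to 1072 CPM in OE and 558 to 776 CPM in Ctrl at 20 weeks, against 1036 to 1303 and 993 to 1224 CPM at 8 weeks. The 5 mast cell markers summed to 78.3 to 147 CPM in OE and 139 to 285 CPM in Ctrl at 20 weeks, against 30.9 to 70.7 and 23.1 to 58.7 CPM at 8 weeks. Sums of the 7 mesothelial markers were separate between genotypes at 20 weeks (41.7 to 111 CPM in OE and 124 to 307 CPM in Ctrl). At 8 weeks they overlapped (229 to 352 and 157 to 281 CPM). None of the 7 was called between genotypes at 20 weeks, where 6 had an unadjusted p under 0.05 with edgeR (3.97% of all genes did). OE library 2 and Ctrl library 4 at 8 weeks held epididymal transcripts, with sums over 13 markers of 2706 and 4098 CPM and at most 239 CPM elsewhere, and with smooth muscle sums of 3770.1 and 3715 CPM. OE library 1 at 20 weeks had the lowest macrophage sum of that age (3311 CPM) and the highest adipocyte sum (22659.6 CPM), and the libraries numbered 1 at 8 weeks stood apart from the others of their age in several members described below.

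Between 20 and 8 weeks, the ligand Tgfb1, its receptor Tgfbr1 and the ligand Gdf3 rose in both genotypes. The members that fell in both genotypes were the ligands Tgfb3, Bmp4, Bmp6 and Gdf10, the latent complex protein Ltbp4, the receptor Acvr1c, the antagonists Chrdl1 and Fstl3, and the BMP Smad, Smad9. In OE, 3 members rose, 10 fell and 36 were not called, where 13.1% of all genes tested rose and 9.91% fell. In Ctrl, 7 rose, 18 fell and 24 were not called, where 19.6% of all genes rose and 21.3% fell. The median log2 fold change of the 49 was -0.15 in OE and -0.15 in Ctrl, beside -0.03 and -0.05 over all genes tested. At least 2-fold changes were called for 9 members in OE and 13 in Ctrl, where 9.35% and 19.1% of all genes tested had one. Besides the 3 that rose and 9 that fell in both (12% and 8.36% of all genes), 13 members were called in Ctrl and not in OE (20.6% of all genes), Bmp2 in OE and not in Ctrl (2.63%) and 23 in neither (56.4%). No gene was called in opposite directions, member or not. The groups did not overlap for 5 members higher and 10 lower in OE (12.9% and 9.50% of all genes) and for 6 higher and 12 lower in Ctrl (18.5% and 14.8%). Single libraries moved these counts by over 1.5 times. In OE 8 members rose without OE library 1 at 20 weeks (3107 of all genes) and 5 without Ctrl library 4 at 8 weeks (2693). Without OE library 4 at 20 weeks 6 members fell in OE (1014 of all genes). In Ctrl 11 fell without Ctrl library 3 at 20 weeks (2518 of all genes) and 11 without Ctrl library 2 at 8 weeks (3195). With all 16 libraries 2509 of all genes rose and 1902 fell in OE, and 4083 fell in Ctrl. Another fit held 2 surrogate variables, which had 50.6% and 21.9% of their variance between the ages. In it 0 of the 25 Ctrl calls and 2 of the 13 OE calls, Tgfbr1 and Smad9, remained. Over all genes, 252 rose and 99 fell in Ctrl in that fit, against 3770 and 4083 in the reported fit. In OE 889 of all genes rose and 394 fell, against 2509 and 1902. Bulk RNA cannot tell fewer cells of a type from less RNA per cell, and the share of each cell type's change in what follows was not tested.

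**Figure D1:**
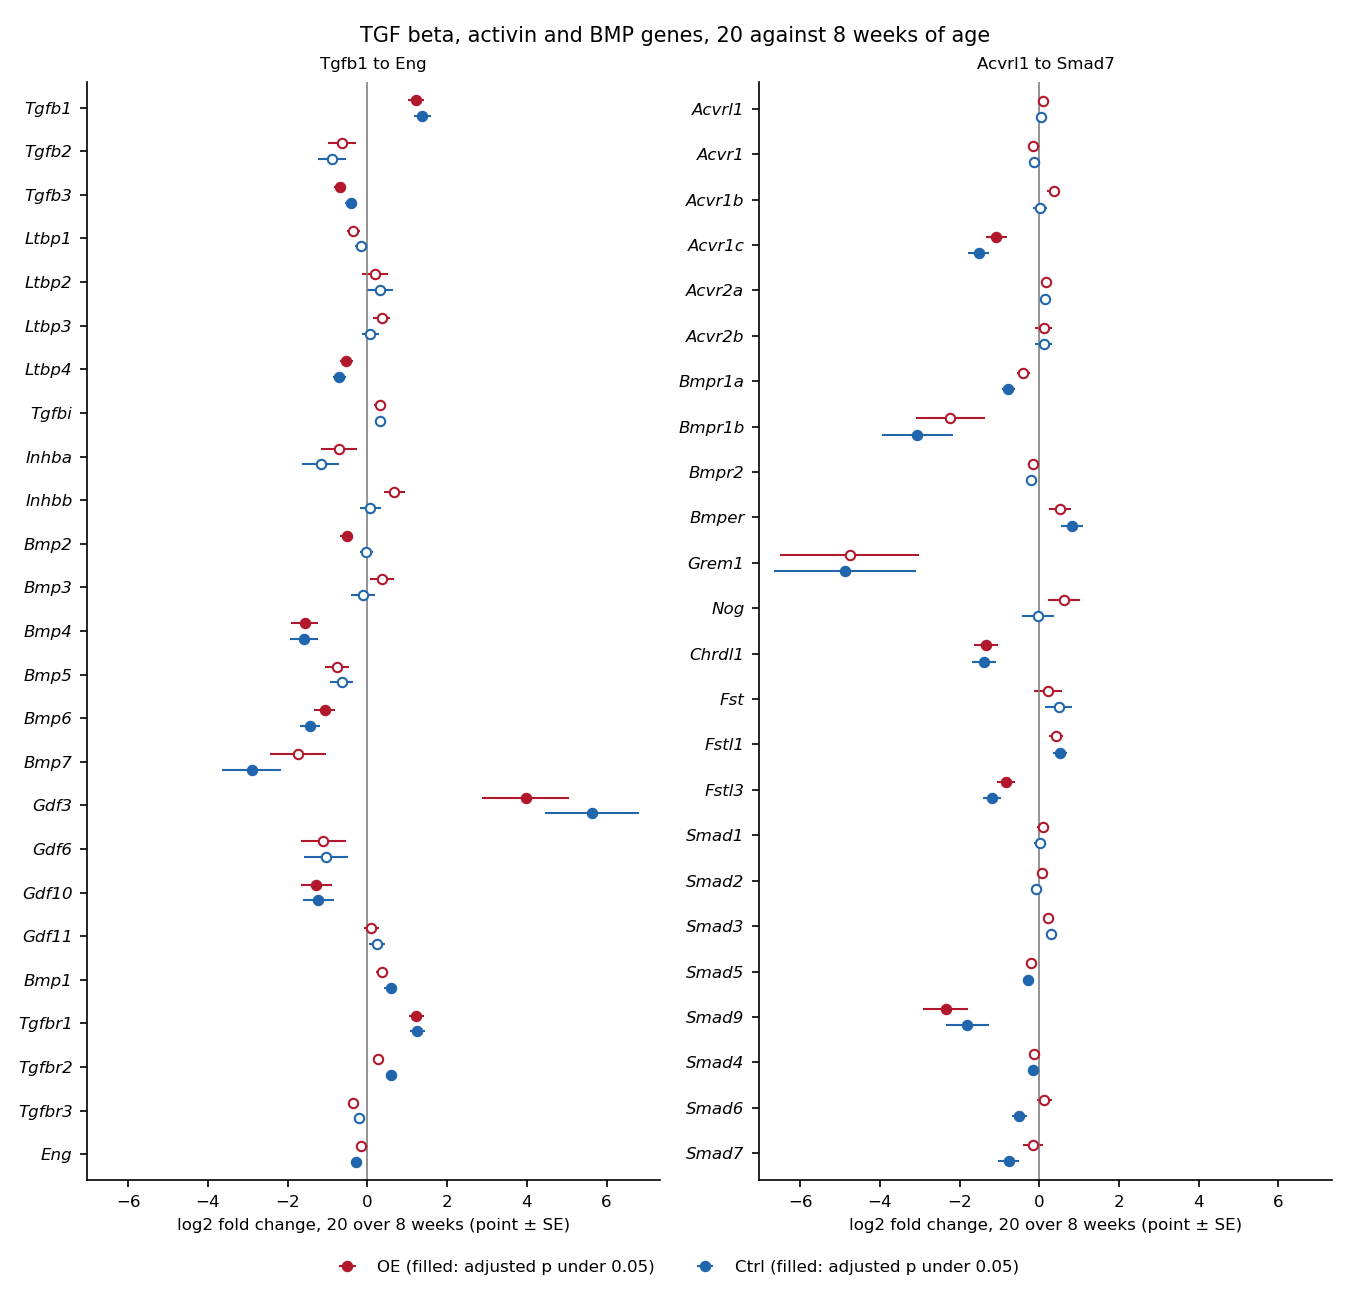
Log2 fold change between 20 and 8 weeks for each of the 49 members, on the x axis, with its standard error as a bar. OE is in red above Ctrl in blue, filled points had an adjusted p under 0.05, and Tgfb1, Tgfbr1 and Gdf3 are the 3 filled in both genotypes to the right of 0, with 9 filled in both to its left.

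Promoters are printed for a pair of members that rose in both genotypes (Tgfb1 and Tgfbr1) and a pair that fell in both (Bmp6 and Fstl3), because Smad complexes are known to bind short DNA words near the genes they control and members of this pathway are known among their targets. Each is 300 bases of RefSeq sequence on GRCm38.p6, from 250 before to 50 after an annotated start, read 5′ to 3′ on the gene's strand, with capitals on CAGAC or its reverse complement GTCTG (the core of the site bound by Smad3 and Smad4) and on the palindrome GGCGCC (bound by BMP Smads).
Tgfb1 (chr7:25686752-25687051, + strand): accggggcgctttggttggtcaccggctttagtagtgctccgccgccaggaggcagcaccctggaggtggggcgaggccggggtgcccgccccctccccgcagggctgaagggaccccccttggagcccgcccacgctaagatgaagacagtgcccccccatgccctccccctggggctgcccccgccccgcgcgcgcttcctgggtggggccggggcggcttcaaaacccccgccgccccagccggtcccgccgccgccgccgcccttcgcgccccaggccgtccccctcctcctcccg
Tgfbr1 (chr4:47352972-47353271, + strand): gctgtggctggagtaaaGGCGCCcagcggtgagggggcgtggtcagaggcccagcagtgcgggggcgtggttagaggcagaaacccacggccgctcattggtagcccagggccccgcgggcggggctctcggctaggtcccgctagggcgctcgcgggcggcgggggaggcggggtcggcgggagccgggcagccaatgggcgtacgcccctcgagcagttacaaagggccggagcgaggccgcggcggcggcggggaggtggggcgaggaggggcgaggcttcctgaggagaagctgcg
Bmp6 (chr13:38345466-38345765, + strand): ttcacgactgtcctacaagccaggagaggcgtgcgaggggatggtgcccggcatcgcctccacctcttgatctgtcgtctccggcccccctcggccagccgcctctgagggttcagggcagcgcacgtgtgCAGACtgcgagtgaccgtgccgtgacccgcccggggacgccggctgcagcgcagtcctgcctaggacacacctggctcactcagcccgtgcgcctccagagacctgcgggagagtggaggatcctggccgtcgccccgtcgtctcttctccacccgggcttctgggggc
Fstl3 (chr10:79777024-79777323, + strand): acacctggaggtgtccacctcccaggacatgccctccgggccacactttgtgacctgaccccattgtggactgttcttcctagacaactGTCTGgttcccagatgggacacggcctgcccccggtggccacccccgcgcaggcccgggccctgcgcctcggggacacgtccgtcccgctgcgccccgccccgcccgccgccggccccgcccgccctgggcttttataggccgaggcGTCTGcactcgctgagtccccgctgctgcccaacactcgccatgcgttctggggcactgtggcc

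Promoters were matched for 34 of the 49 members, with 43 starts. CAGAC or GTCTG was in 44.2% of the 43 and in 49.6% of all 32851 promoters of that length, and GGCGCC was in 27.9% and 11.9%. The members' promoters were richer in G and C, with a median of 66.3% against 52.7% for all promoters. Of the 4 printed, Tgfb1 holds neither word, Tgfbr1 holds 1 GGCGCC, Bmp6 holds 1 CAGAC or GTCTG and Fstl3 holds 2. These 4 do not stand for the rest: among members called in Ctrl with a matched promoter, CAGAC or GTCTG was in 2 of 5 that rose and 7 of 13 that fell, and GGCGCC in 1 of 5 and 6 of 13. A second RefSeq start of Tgfbr1 holds 1 CAGAC or GTCTG. The AP-1 word TGANTCA was in 2.33% of the members' promoters and 7.81% of all, and the nuclear receptor word AGGTCA or its reverse complement TGACCT in 6.98% and 16.3%. A match describes letters in this window and does not show binding.

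Tgfb1, the isoform most tied to immune cells and fibrosis, rose in both genotypes. Tgfb1 (chr7:25687002-25705077) had 80.6, 140.1, 132 and 168 CPM in OE at 20 weeks, against 61.9, 63.5, 47.2 and 52.4 CPM in OE at 8 weeks. In Ctrl, Tgfb1 had 140.5, 166, 168 and 109 CPM at 20 weeks, against 69.6, 50.6, 56.0 and 48.3 CPM at 8 weeks. Every 20-week library lay above every 8-week library, with OE library 1 the lowest of the 20-week ones. Tgfb1's log2 fold change, 20 over 8 weeks, was 1.21 ± 0.20 in OE (adjusted p = 0.00126) and 1.38 ± 0.21 in Ctrl (adjusted p = 0.000237), with edgeR. Both calls held whichever of the 16 libraries was left out. Tgfb3, an isoform of mesenchymal and epithelial tissues, moved the other way. It had 22.3, 19.0, 20.4 and 30.1 CPM in OE at 20 weeks, against 31.0, 36.9, 41.8 and 38.3 CPM in OE at 8 weeks. In Ctrl, Tgfb3 had 24.9, 24.2, 25.4 and 25.4 CPM at 20 weeks, against 25.1, 36.8, 35.1 and 36.0 CPM at 8 weeks. The OE groups did not overlap, while in Ctrl library 1 at 8 weeks lay among the 20-week values. Tgfb3's log2 fold change, 20 over 8 weeks, was -0.69 ± 0.15 in OE (adjusted p = 0.00454) and -0.41 ± 0.15 in Ctrl (adjusted p = 0.0367). Tgfb3 lost its call in Ctrl without library 1 of OE at 20 weeks, library 1, 2, 3 or 4 of Ctrl at 20 weeks or library 2, 3 or 4 of Ctrl at 8 weeks, each left out alone (log2 fold change -0.42 to -0.36, adjusted p = 0.0548 to 0.0947). Tgfb2, the third isoform, was not called (-0.64 ± 0.35 with adjusted p = 0.202 in OE and -0.88 ± 0.35 with adjusted p = 0.0581 in Ctrl).

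Of the latent TGF beta binding proteins, which tether the latent complex to matrix fibres, Ltbp4 fell in both genotypes and the other 3 were not called. Ltbp4 (chr7:27305140-27339720) had 405, 263, 317 and 243 CPM in OE at 20 weeks, against 413, 405, 481 and 476 CPM in OE at 8 weeks. In Ctrl, Ltbp4 had 238, 228, 245 and 305 CPM at 20 weeks, against 349, 478, 451 and 375 CPM at 8 weeks. The groups did not overlap in either genotype, although OE library 1 at 20 weeks came within 1 CPM of the lowest 8-week OE library. Ltbp4's log2 fold change, 20 over 8 weeks, was -0.53 ± 0.16 in OE (adjusted p = 0.0264) and -0.70 ± 0.16 in Ctrl (adjusted p = 0.00353). Ltbp4 lost its call in OE without library 2, 3 or 4 of OE at 20 weeks or library 3 or 4 of OE at 8 weeks, each left out alone (log2 fold change -0.55 to -0.43, adjusted p = 0.0523 to 0.0896). Ltbp3, the latent binding protein with the highest TPM averaged over all 16 libraries, though not in OE at 8 weeks, had 648, 518, 578 and 408 CPM in OE at 20 weeks, against 511, 312, 487 and 369 CPM in OE at 8 weeks. In Ctrl, Ltbp3 had 441, 383, 392 and 577 CPM at 20 weeks, against 596, 373, 428 and 309.7 CPM at 8 weeks. Its ages overlapped throughout. Ltbp3's log2 fold change, 20 over 8 weeks, was 0.36 ± 0.22 in OE (adjusted p = 0.254) and 0.07 ± 0.22 in Ctrl (adjusted p = 0.822). Ltbp1 was at -0.35 ± 0.15 with adjusted p = 0.114 in OE and -0.15 ± 0.15 with adjusted p = 0.445 in Ctrl, and Ltbp2, which does not bind latent TGF beta, at 0.20 ± 0.32 with adjusted p = 0.685 and 0.31 ± 0.32 with adjusted p = 0.471. Tgfbi, a matrix protein named for its induction by TGF beta, had 123, 178, 146 and 195 CPM in OE at 20 weeks, against 139, 120.1, 129 and 131 CPM in OE at 8 weeks. In Ctrl, Tgfbi had 125, 128, 166 and 138 CPM at 20 weeks, against 124, 100.2, 114 and 109 CPM at 8 weeks. The Ctrl groups did not overlap, yet the difference was not called in either genotype. Tgfbi's log2 fold change, 20 over 8 weeks, was 0.31 ± 0.13 in OE (adjusted p = 0.105) and 0.32 ± 0.13 in Ctrl (adjusted p = 0.0651).

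**Figure D2:**
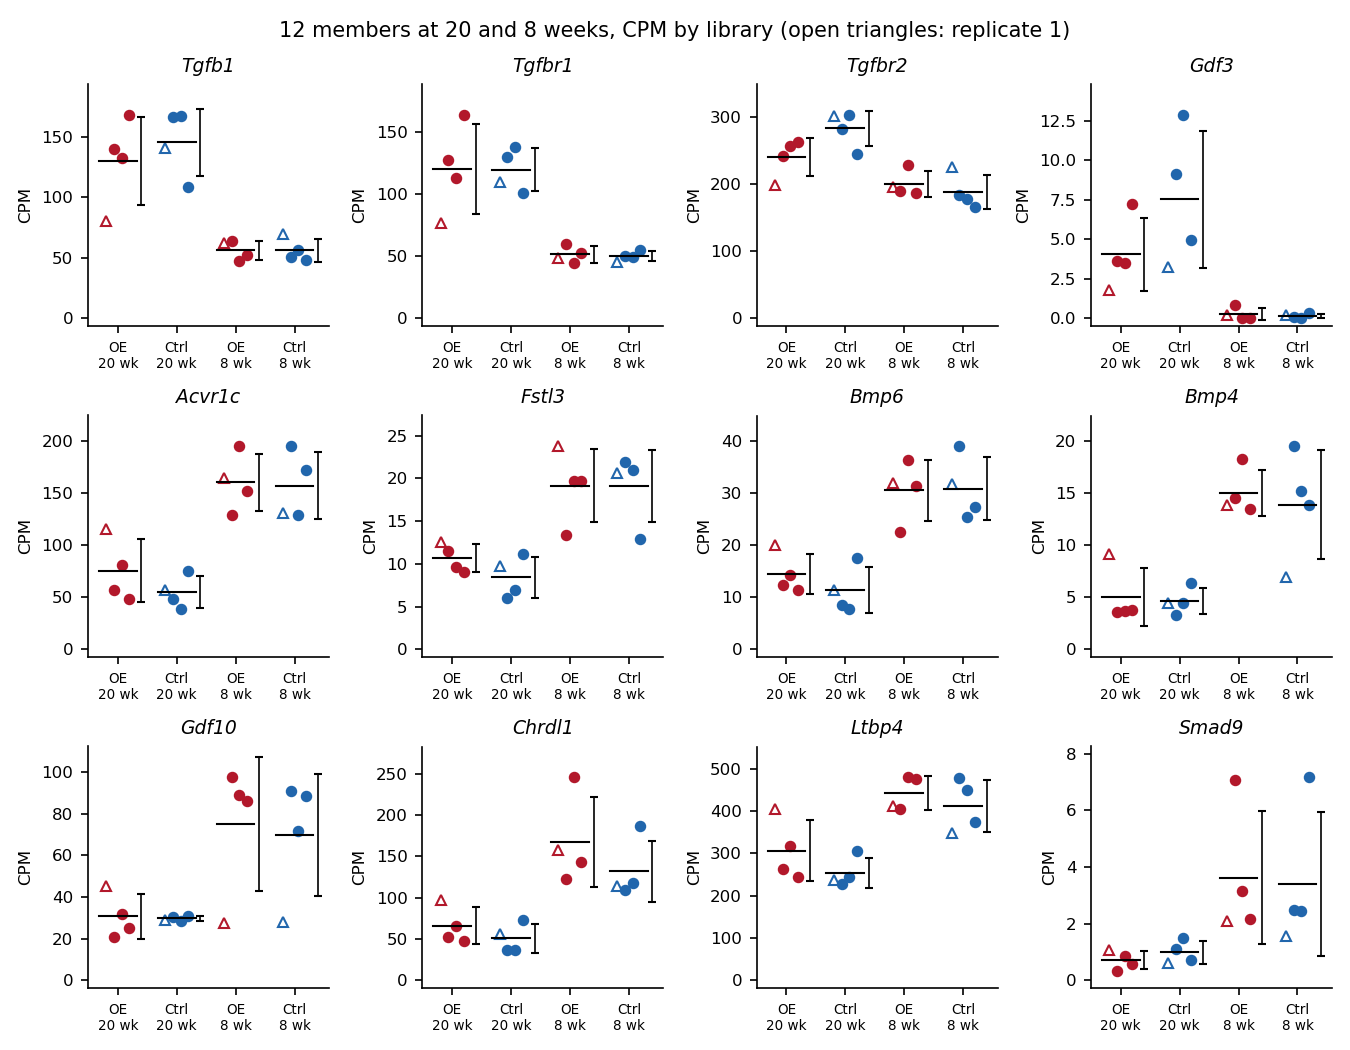
CPM (y axis) of 12 members in each library, with the 4 groups on the x axis, OE in red and Ctrl in blue. Open triangles are the libraries numbered 1, bars are group means with the SD of 4 libraries beside them, and Tgfb1, Tgfbr1 and Gdf3 stand higher at 20 weeks while Acvr1c, Fstl3, Bmp6, Bmp4, Chrdl1, Ltbp4 and Smad9 stand lower in both genotypes.

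Activins are dimers of the subunits encoded by Inhba and Inhbb, and neither passed the test between ages. Inhbb, the subunit of activin B, had 154, 114, 105 and 80.6 CPM in OE at 20 weeks, against 99.98, 53.8, 55.6 and 74.1 CPM in OE at 8 weeks. In Ctrl, Inhbb had 78.4, 70.2, 63.0 and 107 CPM at 20 weeks, against 93.6, 90.5, 72.8 and 45.8 CPM at 8 weeks. The ages overlapped in both genotypes. Inhbb's log2 fold change, 20 over 8 weeks, was 0.68 ± 0.27 in OE (adjusted p = 0.0791) and 0.08 ± 0.26 in Ctrl (adjusted p = 0.841). Inhba, the subunit of activin A, was at -0.71 ± 0.46 with adjusted p = 0.274 in OE and -1.18 ± 0.46 with adjusted p = 0.0546 in Ctrl.

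Gdf3 showed the largest rise among the members in both genotypes. Gdf3, a ligand that adipose tissue macrophages are known to make and that acts through ALK7, was close to absent at 8 weeks. Gdf3 (chr6:122605403-122610087) had 1.77, 3.63, 3.51 and 7.26 CPM in OE at 20 weeks, against 0.223, 0.808, 0 and 0 CPM in OE at 8 weeks. In Ctrl, Gdf3 had 3.22, 9.10, 12.9 and 4.96 CPM at 20 weeks, against 0.186, 0.0864, 0 and 0.298 CPM at 8 weeks. All 8 libraries at 20 weeks lay above all 8 at 8 weeks, and 3 of the 8-week libraries had 0 counts. Gdf3's log2 fold change, 20 over 8 weeks, was 3.97 ± 1.09 in OE (adjusted p = 0.0182) and 5.64 ± 1.18 in Ctrl (adjusted p = 0.00216), with edgeR. Gdf3 lost its call in OE without library 4 of OE at 20 weeks (log2 fold change 3.52, adjusted p = 0.057). The fold change rests on few counts at 8 weeks (0 to 30 per library, against 72 to 512 at 20 weeks) and moved by over 1.5 times with 1 library: without OE library 2 at 8 weeks it was 5.70 in OE, and without Ctrl library 4 at 8 weeks it was 6.37 in Ctrl. The macrophage marker sums moved with Gdf3 and Tgfb1, at 3311 to 8844 CPM in OE and 5254 to 9173 CPM in Ctrl at 20 weeks and 1071 to 1993 and 901 to 1477 CPM at 8 weeks, and all 10 macrophage markers rose in both genotypes. Their part in these rises was not tested.

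Bmp4, a ligand of adipocyte commitment, and Bmp6, a ligand known for iron regulation, fell in both genotypes. Bmp4 (chr14:46383525-46390669) had 9.18, 3.56, 3.67 and 3.74 CPM in OE at 20 weeks, against 13.8, 14.5, 18.3 and 13.5 CPM in OE at 8 weeks. In Ctrl, Bmp4 had 4.43, 3.30, 4.42 and 6.32 CPM at 20 weeks, against 6.98, 19.5, 15.2 and 13.9 CPM at 8 weeks. The ages did not overlap within a genotype, with OE library 1 at 20 weeks and Ctrl library 1 at 8 weeks each nearest to the other age. Bmp4's log2 fold change, 20 over 8 weeks, was -1.58 ± 0.35 in OE (adjusted p = 0.00536) and -1.59 ± 0.35 in Ctrl (adjusted p = 0.00283), with edgeR. Bmp6 (chr13:38345716-38500314, promoter above) had 20.0, 12.4, 14.4 and 11.3 CPM in OE at 20 weeks, against 32.1, 22.5, 36.4 and 31.3 CPM in OE at 8 weeks. In Ctrl, Bmp6 had 11.5, 8.58, 7.79 and 17.6 CPM at 20 weeks, against 31.7, 39.1, 25.4 and 27.4 CPM at 8 weeks. Again no 20-week library reached the lowest 8-week library of its genotype. Bmp6's log2 fold change, 20 over 8 weeks, was -1.08 ± 0.25 in OE (adjusted p = 0.00808) and -1.44 ± 0.26 in Ctrl (adjusted p = 0.00074). These calls of Bmp4 and Bmp6 held in all 16 fits that left out 1 library. In the GENCODE annotation 5.74% of the exonic bases of Bmp6 are shared with Txndc5 on the other strand, which had 5469 to 10183 counts in a library and was not called (log2 fold change -0.09 ± 0.09 in OE and 0.03 ± 0.08 in Ctrl). How many reads of Bmp6 come from that stretch was not tested. Bmp7, known in fat for promoting brown adipocytes, was low throughout and was called in Ctrl. Bmp7 (chr2:172868012-172940321) had 3.09, 1.09, 3.06 and 0.947 CPM in OE at 20 weeks, against 1.61, 8.59, 4.67 and 12.7 CPM in OE at 8 weeks. In Ctrl, Bmp7 had 0.493, 0.894, 0.930 and 1.31 CPM at 20 weeks, against 1.30, 3.50, 9.27 and 13.2 CPM at 8 weeks. Libraries numbered 1 at 8 weeks lay among the 20-week values, so the ages overlapped in both genotypes. Bmp7's log2 fold change, 20 over 8 weeks, was -1.75 ± 0.70 in OE (adjusted p = 0.0865) and -2.91 ± 0.74 in Ctrl (adjusted p = 0.00748).

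Gdf10, also called BMP3b and known to restrain adipogenesis, fell in both genotypes. Gdf10 (chr14:33923587-33936514) had 45.5, 20.9, 31.6 and 25.1 CPM in OE at 20 weeks, against 27.3, 97.8, 89.1 and 86.3 CPM in OE at 8 weeks. In Ctrl, Gdf10 had 29.1, 30.6, 28.4 and 30.7 CPM at 20 weeks, against 27.9, 91.0, 71.6 and 88.5 CPM at 8 weeks. Library 1 of each genotype at 8 weeks lay among the OE libraries and below the Ctrl libraries of 20 weeks. The other 8-week libraries lay above all 20-week libraries. Gdf10's log2 fold change, 20 over 8 weeks, was -1.29 ± 0.39 in OE (adjusted p = 0.0289) and -1.23 ± 0.39 in Ctrl (adjusted p = 0.0225). Gdf10 lost its call in OE without library 2, 3 or 4 of OE at 20 weeks or library 2, 3 or 4 of OE at 8 weeks, each left out alone (log2 fold change -1.30 to -1.14, adjusted p = 0.063 to 0.0915). Gdf10 lost its call in Ctrl without library 2 or 3 of Ctrl at 20 weeks or library 2 or 4 of Ctrl at 8 weeks, each left out alone (log2 fold change -1.25 to -1.08, adjusted p = 0.0507 to 0.0617). Without both libraries numbered 1 at 8 weeks the fall was larger, at -1.56 ± 0.20 with adjusted p = 0.000819 in OE and -1.49 ± 0.20 with adjusted p = 0.000274 in Ctrl. Bmp2, an osteogenic and adipogenic ligand, fell by a small step in OE and not in Ctrl. It had 5.28, 4.15, 4.48 and 4.10 CPM in OE at 20 weeks, against 6.09, 7.06, 5.71 and 7.03 CPM in OE at 8 weeks. In Ctrl, Bmp2 had 6.26, 4.14, 5.30 and 6.59 CPM at 20 weeks, against 5.23, 6.28, 5.08 and 6.06 CPM at 8 weeks. The OE ages did not overlap, and the Ctrl ages did. Bmp2's log2 fold change, 20 over 8 weeks, was -0.52 ± 0.16 in OE (adjusted p = 0.0274) and -0.02 ± 0.16 in Ctrl (adjusted p = 0.917). Bmp2 lost its call in OE without library 2, 3 or 4 of OE at 20 weeks or library 2 or 4 of OE at 8 weeks, each left out alone (log2 fold change -0.52 to -0.48, adjusted p = 0.057 to 0.083). The other ligands were not called: Bmp3 (0.37 ± 0.30 with adjusted p = 0.398 in OE and -0.12 ± 0.30 with adjusted p = 0.783 in Ctrl), Bmp5 (-0.76 ± 0.29 with adjusted p = 0.0719 and -0.65 ± 0.29 with adjusted p = 0.0878), Gdf6 (-1.11 ± 0.56 with adjusted p = 0.169 and -1.04 ± 0.56 with adjusted p = 0.152) and Gdf11 (0.10 ± 0.20 with adjusted p = 0.738 and 0.25 ± 0.20 with adjusted p = 0.327). Bmp1, which despite its name is a protease that cleaves procollagens and chordin, had 103, 123, 149 and 148 CPM in OE at 20 weeks, against 100.2, 122, 93.3 and 90.1 CPM in OE at 8 weeks. In Ctrl, Bmp1 had 115, 145, 157 and 126 CPM at 20 weeks, against 119, 85.8, 79.6 and 77.2 CPM at 8 weeks. Library 1 of Ctrl at 8 weeks lay among the 20-week Ctrl values and the other 3 lay below them. Bmp1's log2 fold change, 20 over 8 weeks, was 0.37 ± 0.16 in OE (adjusted p = 0.116) and 0.58 ± 0.16 in Ctrl (adjusted p = 0.0118).

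Among the TGF beta receptors, the type I receptor Tgfbr1 (ALK5) rose in both genotypes. Tgfbr1 (chr4:47353222-47414926, promoter above) had 76.9, 128, 113 and 164 CPM in OE at 20 weeks, against 48.7, 60.0, 44.5 and 52.5 CPM in OE at 8 weeks. In Ctrl, Tgfbr1 had 109.8, 130.0, 138 and 101 CPM at 20 weeks, against 45.6, 50.4, 49.7 and 55.3 CPM at 8 weeks. No 8-week library reached the lowest 20-week library. Tgfbr1's log2 fold change, 20 over 8 weeks, was 1.23 ± 0.18 in OE (adjusted p = 0.000679) and 1.25 ± 0.18 in Ctrl (adjusted p = 0.000203), with edgeR. Tgfbr2, the type II receptor that binds the ligand first, had 199, 242, 256 and 262 CPM in OE at 20 weeks, against 196, 189, 228 and 186 CPM in OE at 8 weeks. In Ctrl, Tgfbr2 had 300.5, 282, 303 and 245 CPM at 20 weeks, against 225, 183, 177 and 166 CPM at 8 weeks. The ages were separate in Ctrl and overlapped in OE. Tgfbr2's log2 fold change, 20 over 8 weeks, was 0.26 ± 0.12 in OE (adjusted p = 0.116) and 0.59 ± 0.12 in Ctrl (adjusted p = 0.00156). The calls of Tgfbr1 and Tgfbr2 held in all 16 fits that left out 1 library. Tgfbr3, the co-receptor betaglycan, had 148, 110.1, 136 and 103 CPM in OE at 20 weeks, against 143, 140.4, 197 and 159 CPM in OE at 8 weeks. In Ctrl, Tgfbr3 had 129.5, 119, 114 and 129 CPM at 20 weeks, against 135, 154, 132 and 149.9 CPM at 8 weeks. Its Ctrl ages were separate and its OE ages overlapped, without a call in either. Tgfbr3's log2 fold change, 20 over 8 weeks, was -0.36 ± 0.13 in OE (adjusted p = 0.0508) and -0.22 ± 0.13 in Ctrl (adjusted p = 0.183).

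Eng, the endothelial co-receptor endoglin, had 179, 156, 169 and 135 CPM in OE at 20 weeks, against 186, 163, 201 and 165 CPM in OE at 8 weeks. In Ctrl, Eng had 145, 161, 148 and 143 CPM at 20 weeks, against 209, 185, 171 and 162 CPM at 8 weeks. In Ctrl all 20-week libraries lay just below the 8-week ones. Eng's log2 fold change, 20 over 8 weeks, was -0.16 ± 0.10 in OE (adjusted p = 0.272) and -0.28 ± 0.10 in Ctrl (adjusted p = 0.0425). Eng lost its call in Ctrl without library 2 or 3 of OE at 20 weeks, library 1, 3 or 4 of Ctrl at 20 weeks or library 1, 2 or 3 of Ctrl at 8 weeks, each left out alone (log2 fold change -0.31 to -0.21, adjusted p = 0.051 to 0.124). Acvrl1 (ALK1), the endothelial type I receptor that works with endoglin, was not called (0.09 ± 0.09 with adjusted p = 0.499 in OE and 0.05 ± 0.09 with adjusted p = 0.707 in Ctrl). The endothelial marker sums were also lower at 20 weeks, at 574 to 1072 CPM in OE and 558 to 776 CPM in Ctrl against 1036 to 1303 and 993 to 1224 CPM at 8 weeks, with ranges that overlapped in OE, and their part in the Eng result was not tested.

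Acvr1c, which encodes ALK7, a receptor found mainly in adipocytes within fat, fell in both genotypes. Gdf3, the gene of a ligand that acts through ALK7, rose, and a link between these changes was not tested. Acvr1c (chr2:58267453-58357896) had 116, 56.8, 81.5 and 48.3 CPM in OE at 20 weeks, against 165, 129, 195 and 152 CPM in OE at 8 weeks. In Ctrl, Acvr1c had 57.1, 48.2, 38.8 and 75.5 CPM at 20 weeks, against 131, 196, 129 and 173 CPM at 8 weeks. The ages did not overlap, and OE library 1 was the highest at 20 weeks. Acvr1c's log2 fold change, 20 over 8 weeks, was -1.09 ± 0.27 in OE (adjusted p = 0.00987) and -1.52 ± 0.27 in Ctrl (adjusted p = 0.000713), with edgeR. Both calls held whichever library was left out. The mature adipocyte sums were also lower at 20 weeks (12519 to 22659.6 CPM in OE and 9685 to 17009.7 CPM in Ctrl) than at 8 weeks (14314 to 27891 and 16115 to 26228 CPM), with ranges that overlapped, and 5 of the 8 markers fell in each genotype. Their part in the fall of Acvr1c was not tested. Bmpr1a (ALK3), a type I BMP receptor with a higher TPM than Bmpr1b in every group, fell in Ctrl (-0.79 ± 0.16 with adjusted p = 0.00213). It was not called in OE (-0.40 ± 0.16 with adjusted p = 0.0859). Bmpr1b (ALK6) was a low transcript with uneven 8-week values. Bmpr1b (chr3:141837135-142169585) had 2.09, 1.46, 0.864 and 0.609 CPM in OE at 20 weeks, against 0.669, 8.73, 3.87 and 10.4 CPM in OE at 8 weeks. In Ctrl, Bmpr1b had 1.42, 0.785, 0.880 and 0.463 CPM at 20 weeks, against 0.372, 5.94, 9.75 and 13.6 CPM at 8 weeks. Library 1 at 8 weeks lay among the 20-week libraries in OE and below them in Ctrl, and the other 8-week libraries lay above them. Bmpr1b's log2 fold change, 20 over 8 weeks, was -2.24 ± 0.87 in OE (adjusted p = 0.0757) and -3.06 ± 0.90 in Ctrl (adjusted p = 0.0157). Without both libraries numbered 1 at 8 weeks it was -2.61 ± 0.49 with adjusted p = 0.00353 in OE and -3.46 ± 0.50 with adjusted p = 0.000403 in Ctrl. The type I receptors Acvr1 (ALK2) and Acvr1b (ALK4) and the type II receptors Acvr2a, Acvr2b and Bmpr2 were not called in either genotype, with log2 fold changes from -0.16 (Acvr1) to 0.36 (Acvr1b) in OE and from -0.22 (Bmpr2) to 0.14 (Acvr2a) in Ctrl.

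The antagonists moved apart from one another. Chrdl1, a chordin-like protein that binds BMPs, and Fstl3, a follistatin-like protein that binds activins, fell in both genotypes. Chrdl1 (chrX:143285674-143394263) had 97.6, 52.5, 65.2 and 47.9 CPM in OE at 20 weeks, against 158, 123, 246 and 143 CPM in OE at 8 weeks. In Ctrl, Chrdl1 had 56.1, 36.0, 36.8 and 73.3 CPM at 20 weeks, against 115, 109, 118 and 187 CPM at 8 weeks. The ages did not overlap in either genotype. Chrdl1's log2 fold change, 20 over 8 weeks, was -1.35 ± 0.30 in OE (adjusted p = 0.00584) and -1.39 ± 0.30 in Ctrl (adjusted p = 0.00276), with edgeR. Fstl3 (chr10:79777274-79782630, promoter above) had 12.5, 11.5, 9.58 and 9.09 CPM in OE at 20 weeks, against 23.8, 13.4, 19.7 and 19.8 CPM in OE at 8 weeks. In Ctrl, Fstl3 had 9.73, 5.98, 6.91 and 11.1 CPM at 20 weeks, against 20.6, 21.9, 21.0 and 12.9 CPM at 8 weeks. Again the ages were separate, with OE library 2 and Ctrl library 4, which hold epididymal transcripts, lowest at 8 weeks. Fstl3's log2 fold change, 20 over 8 weeks, was -0.85 ± 0.23 in OE (adjusted p = 0.0151) and -1.18 ± 0.23 in Ctrl (adjusted p = 0.00127). Fstl3 lost its call in OE without library 4 of OE at 20 weeks (log2 fold change -0.78, adjusted p = 0.0549). In the GENCODE annotation 47.3% of the exonic bases of Fstl3 are shared with Prss57 on the other strand, and the sources used here do not give the strand setting of the counting. Prss57 itself had at most 41 counts in a library.

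Grem1, gremlin 1, which binds BMP2 and BMP4, had 0.270, 0, 0 and 0.0451 CPM in OE at 20 weeks, against 0, 3.07, 3.02 and 2.75 CPM in OE at 8 weeks. In Ctrl, Grem1 had 0.290, 0, 0 and 0 CPM at 20 weeks, against 0, 4.66, 1.61 and 2.23 CPM at 8 weeks. It was at 0 counts in 5 of the 8 libraries at 20 weeks and in library 1 of both genotypes at 8 weeks, and at 71 to 216 counts in the remaining 8-week libraries. Grem1's log2 fold change, 20 over 8 weeks, was -4.75 ± 1.74 in OE (adjusted p = 0.0628) and -4.87 ± 1.78 in Ctrl (adjusted p = 0.041). Grem1 lost its call in Ctrl without library 4 of OE at 20 weeks, library 2, 3 or 4 of Ctrl at 20 weeks, library 3 or 4 of OE at 8 weeks or library 2, 3 or 4 of Ctrl at 8 weeks, each left out alone (log2 fold change -4.98 to -4.14, adjusted p = 0.0509 to 0.105). Without Ctrl library 1 at 20 weeks, the one Ctrl library of that age with counts, the Ctrl group of that age was at 0, and the fitted value of -9.50 then depends on the prior count and is no bound. Without both libraries numbered 1 at 8 weeks it was -5.17 ± 1.21 with adjusted p = 0.0102 in OE and -5.29 ± 1.23 with adjusted p = 0.00536 in Ctrl. Bmper, a BMP modulator of the vessel wall, rose in Ctrl (0.83 ± 0.28 with adjusted p = 0.0288) and was not called in OE (0.52 ± 0.28 with adjusted p = 0.187), although all 20-week libraries lay above all 8-week libraries in both genotypes. Bmper lost its call in Ctrl without library 1, 2 or 3 of Ctrl at 20 weeks or library 1 or 3 of Ctrl at 8 weeks, each left out alone (log2 fold change 0.61 to 0.83, adjusted p = 0.0556 to 0.0657). Fstl1, a secreted glycoprotein with the highest level of all 49, had 417, 521, 542 and 722 CPM in OE at 20 weeks, against 393, 382, 425 and 441 CPM in OE at 8 weeks. In Ctrl, Fstl1 had 472, 565, 594 and 517 CPM at 20 weeks, against 477, 368, 390.0 and 272 CPM at 8 weeks. Fstl1's log2 fold change, 20 over 8 weeks, was 0.42 ± 0.17 in OE (adjusted p = 0.0871) and 0.51 ± 0.17 in Ctrl (adjusted p = 0.0283). Fstl1 lost its call in Ctrl without library 2 or 3 of Ctrl at 20 weeks or library 2, 3 or 4 of Ctrl at 8 weeks, each left out alone (log2 fold change 0.38 to 0.53, adjusted p = 0.0516 to 0.0792). Noggin (Nog, 0.63 ± 0.40 with adjusted p = 0.271 in OE and -0.04 ± 0.40 with adjusted p = 0.951 in Ctrl) and follistatin (Fst, 0.22 ± 0.34 with adjusted p = 0.674 and 0.48 ± 0.34 with adjusted p = 0.269) were not called. Ctrl library 4 at 8 weeks, which holds epididymal transcripts, had the highest Fst of its group (18.1 CPM). Without that library Fst was called in Ctrl.

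Smad9, a receptor Smad of the BMP branch, fell in both genotypes, and Smad5 fell by a small step in Ctrl. Smad9 (chr3:54755455-54801662) had 1.08, 0.321, 0.838 and 0.586 CPM in OE at 20 weeks, against 2.08, 7.06, 3.16 and 2.16 CPM in OE at 8 weeks. In Ctrl, Smad9 had 0.608, 1.11, 1.48 and 0.708 CPM at 20 weeks, against 1.57, 2.46, 2.45 and 7.17 CPM at 8 weeks. All 20-week libraries lay below all 8-week libraries, and the highest 8-week values were those of OE library 2 and Ctrl library 4, which hold epididymal transcripts. Smad9's log2 fold change, 20 over 8 weeks, was -2.35 ± 0.56 in OE (adjusted p = 0.00866) and -1.80 ± 0.55 in Ctrl (adjusted p = 0.0188), with edgeR. Smad9 lost its call in Ctrl without library 1 of Ctrl at 20 weeks or library 4 of Ctrl at 8 weeks, each left out alone (log2 fold change -1.63 to -1.14, adjusted p = 0.0524 to 0.0769). Without both libraries with epididymal transcripts it was -1.80 ± 0.41 with adjusted p = 0.00643 in OE and -1.14 ± 0.40 with adjusted p = 0.0381 in Ctrl. Smad5, another BMP Smad, was at -0.20 ± 0.07 with adjusted p = 0.0571 in OE and -0.28 ± 0.07 with adjusted p = 0.00928 in Ctrl, and Smad4, the common partner, at -0.14 ± 0.06 with adjusted p = 0.127 and -0.17 ± 0.06 with adjusted p = 0.0416. Smad4 lost its call in Ctrl without library 1, 2 or 3 of OE at 20 weeks, library 1, 2, 3 or 4 of Ctrl at 20 weeks, library 3 or 4 of OE at 8 weeks or library 2, 3 or 4 of Ctrl at 8 weeks, each left out alone (log2 fold change -0.19 to -0.12, adjusted p = 0.0504 to 0.102). Smad1 (0.09 in OE and 0.01 in Ctrl), Smad2 (0.07 and -0.10) and Smad3 (0.22 and 0.29) were not called.

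The inhibitory Smads, Smad6 and Smad7, which are themselves known targets of the pathway, fell in Ctrl and were not called in OE. Smad6 (chr9:63953076-64022085) had 24.3, 19.1, 18.7 and 14.9 CPM in OE at 20 weeks, against 21.1, 14.9, 17.4 and 17.1 CPM in OE at 8 weeks. In Ctrl, Smad6 had 13.6, 12.3, 12.3 and 19.3 CPM at 20 weeks, against 25.1, 23.2, 17.5 and 15.8 CPM at 8 weeks. The ages overlapped in both genotypes. Smad6's log2 fold change, 20 over 8 weeks, was 0.13 ± 0.19 in OE (adjusted p = 0.656) and -0.51 ± 0.19 in Ctrl (adjusted p = 0.0479). Smad6 lost its call in Ctrl without library 2 or 3 of OE at 20 weeks, library 1, 2 or 3 of Ctrl at 20 weeks, library 3 or 4 of OE at 8 weeks or library 1 or 2 of Ctrl at 8 weeks, each left out alone (log2 fold change -0.51 to -0.39, adjusted p = 0.059 to 0.131). Smad7 was at -0.16 ± 0.26 with adjusted p = 0.688 in OE and -0.77 ± 0.26 with adjusted p = 0.0311 in Ctrl. Smad7 lost its call in Ctrl without library 1, 2 or 3 of Ctrl at 20 weeks or library 1 or 2 of Ctrl at 8 weeks, each left out alone (log2 fold change -0.83 to -0.64, adjusted p = 0.0528 to 0.088).

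Levels between members were compared on the length-scaled TPM of the authors. Averaged over the 16 libraries, Fstl1 was highest at 274 TPM, followed by Ltbp3 (188), Ltbp4 (146), Tgfbi (105), Eng (102), Tgfbr2 (101), Tgfb1 (94.96), Bmp1 (60.8), Chrdl1 (51.9) and Tgfbr3 (47.3). The ranges of these neighbours overlap over the libraries, so the order of adjacent genes is not fixed by these data. The order also changed with age: Tgfb1 averaged 128 ± 36.8 TPM in OE and 146 ± 27.7 TPM in Ctrl at 20 weeks, against 53.6 ± 11.0 and 52.3 ± 7.01 TPM at 8 weeks (SD, n = 4 each). Ltbp4 averaged 129 ± 29.7 TPM in OE and 109 ± 16.6 TPM in Ctrl at 20 weeks, against 179 ± 17.2 and 165 ± 22.2 TPM at 8 weeks. At the low end stood Inhba (0.744 TPM), Smad9 (0.809 TPM), Gdf6 (1.06 TPM) and Grem1 (1.16 TPM). Of the 49, 47 averaged over 1 TPM and 32 over 10 TPM. Tgfb1 made up 87.6% ± 3.29 of the TGF beta ligand TPM in OE and 88.5% ± 2.13 in Ctrl at 20 weeks, against 66.4% ± 5.49 and 68.1% ± 7.82 at 8 weeks (mean ± SD, n = 4 each). The rest was mostly Tgfb3, at 10.4% ± 3.03 in OE and 10.04% ± 2.02 in Ctrl at 20 weeks and 28.3% ± 4.92 and 26.2% ± 5.41 at 8 weeks. The 3 TGF beta ligands summed to 146 ± 39.2 TPM in OE and 164 ± 28.0 TPM in Ctrl at 20 weeks, against 80.6 ± 14.2 and 76.8 ± 4.497 TPM at 8 weeks. The 10 BMP and GDF ligands summed to 67.1 ± 14.7 TPM in OE and 62.2 ± 8.23 TPM in Ctrl at 20 weeks, against 107 ± 21.8 and 102 ± 23.8 TPM at 8 weeks.

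Within that BMP and GDF sum, Gdf10 held 25.7% ± 3.15 in OE and 28.0% ± 2.85 in Ctrl at 20 weeks, against 37.5% ± 13.5 and 36.2% ± 11.0 at 8 weeks. Bmp3, which opposes BMP signals, held 34.4% ± 2.59 in OE and 27.3% ± 4.67 in Ctrl at 20 weeks, against 16.8% ± 9.28 and 18.2% ± 9.35 at 8 weeks. Gdf3 held 6.63% ± 4.39 in OE and 12.7% ± 7.87 in Ctrl at 20 weeks, against 0.219% ± 0.306 and 0.132% ± 0.123 at 8 weeks. At 8 weeks library 1 of each genotype had the smallest Gdf10 share and the largest Bmp3 share of its group. Inhbb was 99.0% ± 0.690 of the activin subunit TPM in OE and 98.9% ± 0.216 in Ctrl at 20 weeks, against 96.2% ± 3.32 and 97.8% ± 1.28 at 8 weeks. These shares are descriptions and were not tested.

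**Figure D3:**
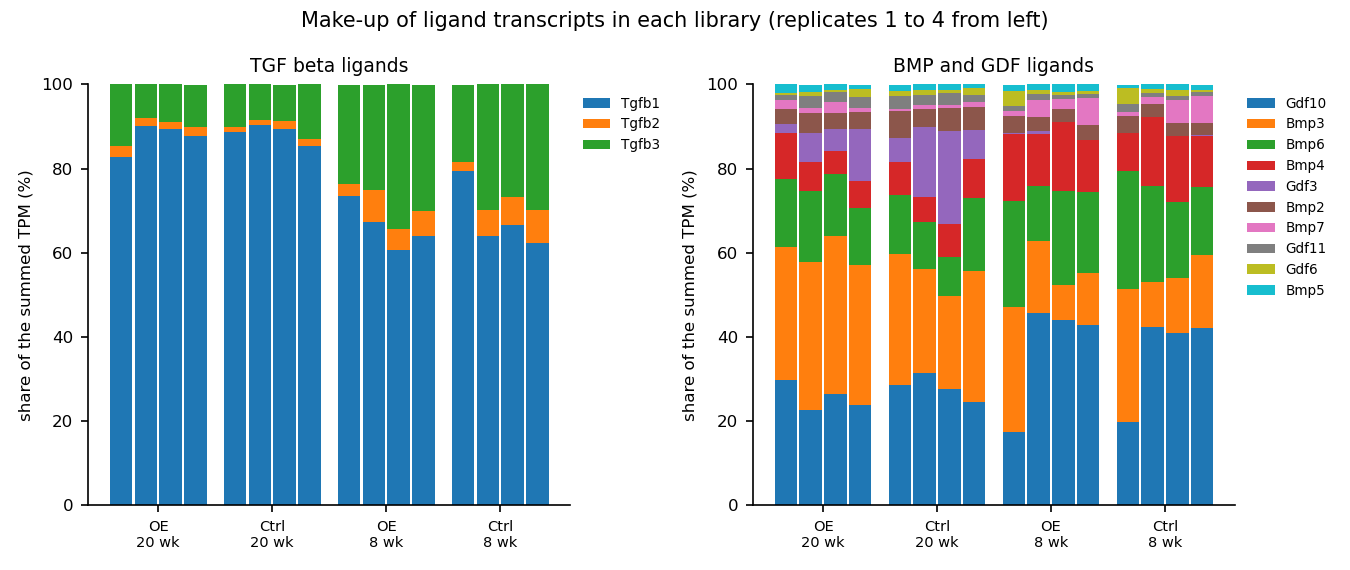
Share (%) of each ligand in the summed TPM of the TGF beta ligands (left) and of the BMP and GDF ligands (right), 1 bar per library, 4 libraries per group on the x axis. The Tgfb1 share is larger in the 20-week bars, Gdf3 is visible there, and the first bar of each 8-week group has a small Gdf10 share.

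The libraries numbered 1 at 8 weeks stood apart from the rest of their age in several members. Bmper was 19.8 CPM in OE library 1 and 19.5 CPM in Ctrl library 1, against 39.8 to 53.7 CPM in the other OE libraries and 38.3 to 48.5 CPM in the other Ctrl libraries. Gdf6, a BMP-type ligand of joints and tendons, was the reverse, with 5.08, 1.54, 1.42 and 1.57 CPM in OE and 5.05, 1.81, 2.56 and 0.934 CPM in Ctrl at 8 weeks. With both left out, all 13 OE calls remained and 8 were added (Acvr1b, Bmp7, Bmpr1b, Grem1, Inhbb, Ltbp1, Tgfb2 and Tgfbr3), and 22 of the 25 Ctrl calls remained, without Eng, Smad6 and Smad7, while Bmp5, Inhba and Tgfb2 were added. With both libraries that hold most epididymal transcripts left out, 11 OE calls and 20 Ctrl calls remained. Bmpr1a, Smad5 and Tgfbr3 were added in OE and Fst in Ctrl. Ctrl library 3 at 8 weeks, with an epididymal marker sum of 239 CPM, stayed in that fit. Of the members gained in OE without the libraries numbered 1, Bmp7 was at -2.08 ± 0.54 with adjusted p = 0.0167 and Tgfb2 at -0.84 ± 0.25 with adjusted p = 0.0287. Without OE library 1 at 20 weeks alone, all 13 OE calls remained and 10 were added, among them Tgfbi, Tgfbr2, Tgfbr3 and Fstl1. Over all genes, 3107 rose and 2679 fell in OE in that fit, against 2509 and 1902 with all 16 libraries. Without both libraries numbered 1 at 8 weeks 2544 of all genes rose and 2152 fell in OE.

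**Figure D4:**
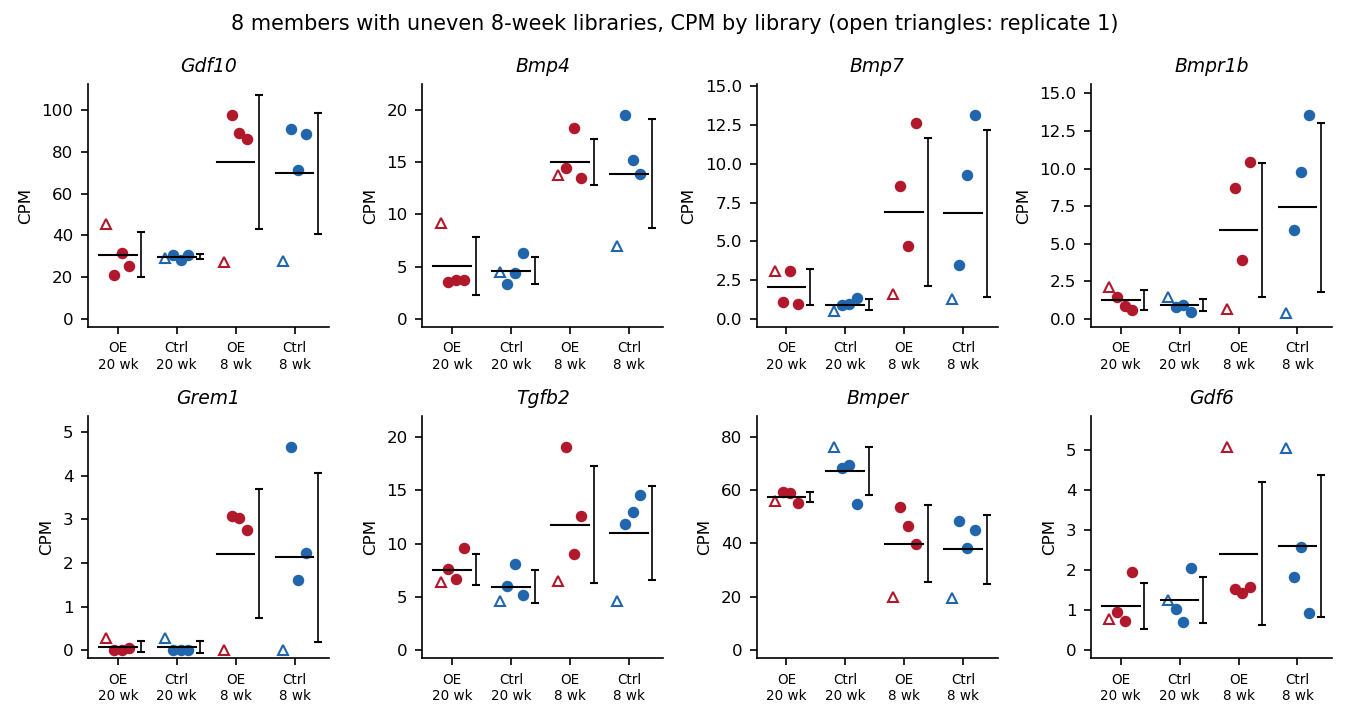
CPM (y axis) by library of 8 members whose 8-week libraries are uneven, with the groups on the x axis, OE in red and Ctrl in blue, bars for means and the SD of 4 libraries beside them. The open triangles, the libraries numbered 1, lie lowest at 8 weeks for Gdf10, Bmp7, Bmpr1b, Grem1, Tgfb2 and Bmper in both genotypes and highest for Gdf6.

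Other genes of the pathway were read from 7 lists, beside all genes tested, of which 13.1% rose and 9.91% fell in OE. In Ctrl 19.6% of all genes rose and 21.3% fell. Among 15 tested genes of latent TGF beta anchoring and activation, 5 rose and 0 fell in OE and 6 rose and 1 fell in Ctrl, with medians of 0.20 and 0.36. The metalloproteases Mmp2 (log2 fold change 1.41 ± 0.20 in OE and 1.71 ± 0.20 in Ctrl) and Mmp14 (1.11 ± 0.18 in OE and 1.49 ± 0.18 in Ctrl), the urokinase gene Plau (1.33 ± 0.25 in OE and 1.83 ± 0.25 in Ctrl) and the integrin gene Itgav (0.93 ± 0.18 in OE and 1.10 ± 0.18 in Ctrl), whose products can release or bind latent TGF beta, were among the rises. Of 21 intracellular regulators, 4 rose and 2 fell in OE and 5 rose and 4 fell in Ctrl. Tgif1, Skil and Pmepa1 of this list are also among the genes known to answer TGF beta, counted below. The ubiquitin ligase genes Wwp1 (0.84 ± 0.15 in OE and 1.45 ± 0.16 in Ctrl) and Nedd4l (1.24 ± 0.17 in OE and 1.08 ± 0.17 in Ctrl) and the Smad corepressor gene Tgif1 (1.34 ± 0.25 in OE and 1.75 ± 0.25 in Ctrl) rose, and Zfyve9, the receptor Smad anchor SARA, fell (-0.55 ± 0.13 in OE and -0.72 ± 0.13 in Ctrl). Of 18 other antagonists and matrix regulators, 1 rose and 8 fell in OE and 2 rose and 5 fell in Ctrl. Chordin (Chrd) fell (-1.02 ± 0.20 in OE and -0.88 ± 0.20 in Ctrl), as did the tolloid-like protease gene Tll2 (-2.98 ± 0.71 in OE and -3.77 ± 0.76 in Ctrl). Of 9 co-receptors and pseudoreceptors, 1 rose and 3 fell in OE and 2 rose and 4 fell in Ctrl. Tmeff2, a membrane protein with follistatin-like domains, rose (1.01 ± 0.21 in OE and 1.07 ± 0.21 in Ctrl), and Amhr2, the receptor of anti-Mullerian hormone, fell (-1.76 ± 0.42 in OE and -2.63 ± 0.44 in Ctrl). Of 9 other ligands, 2 rose and 1 fell in OE and 1 rose and 1 fell in Ctrl. The stress-induced ligand Gdf15 rose in both (2.24 ± 0.45 in OE and 3.06 ± 0.47 in Ctrl, and 2.87 in OE without OE library 2 at 8 weeks).

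Genes known to answer TGF beta moved in both directions: of 18 tested, 3 rose and 1 fell in OE and 3 rose and 2 fell in Ctrl, with medians of 0.45 and 0.09. Timp1, a protease inhibitor, rose (2.31 ± 0.50 in OE and 2.45 ± 0.51 in Ctrl), and Tagln, a smooth muscle protein, fell (-2.34 ± 0.67 in OE and -2.88 ± 0.68 in Ctrl). Without Ctrl library 4 at 8 weeks, which holds epididymal and smooth muscle transcripts, Tagln was at -1.83 in Ctrl, and without OE library 2 at 8 weeks, the other such library, at -1.56 in OE. Of 7 smooth muscle and pericyte markers, 5 fell in OE and 6 in Ctrl, with sums of 344 to 632 CPM in OE and 246 to 396 CPM in Ctrl at 20 weeks, against 809.6 to 3770.1 and 725 to 3715 CPM at 8 weeks, and their part in the fall of Tagln was not tested. Tagln lost its call in OE without library 2, 3 or 4 of OE at 20 weeks or library 2 of OE at 8 weeks, each left out alone (log2 fold change -2.33 to -1.56, adjusted p = 0.0613 to 0.074). Of 10 tested genes known to answer BMPs, which include Smad6 and Smad7, 0 rose and 0 fell in OE and 1 rose and 5 fell in Ctrl, with medians of -0.35 and -0.54. In OE 3 of the 10 had an unadjusted p under 0.05, as had 36.8% of all genes. The falls in Ctrl included Hey1 (-1.09 ± 0.25), a Notch and BMP target, Id4 (-1.90 ± 0.47), an inhibitor of differentiation factors, and Atoh8 (-0.57 ± 0.15). Over all genes tested, 13.1% rose and 9.91% fell in OE and 19.6% and 21.3% in Ctrl. The up to 4 called genes with the smallest adjusted p in each of the 7 lists were also read with 2 surrogate variables. Of these, 8 of 22 in OE and 1 of 24 in Ctrl (Mmp2) stayed called. Calls over all genes also became fewer in that fit, as given above.

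Extra LTA4H in adipocytes went with no called change in any of the 49 members at either age. At 20 weeks 0 of 49 were called with edgeR, where 0.0261% of all genes were, and Smad6 alone had an unadjusted p under 0.05 (3.97% of all genes did). At 8 weeks 0 of 49 were called, where 0.0208% of all genes were, and 0 had an unadjusted p under 0.05 (2.21% of all genes did). DESeq2 also called 0 of 49 at 20 weeks, at 8 weeks and for the interaction, with 60 genes called in all at 20 weeks, 16 at 8 weeks and 29 for the interaction. Smad6 had 24.3, 19.1, 18.7 and 14.9 CPM in OE and 13.6, 12.3, 12.3 and 19.3 CPM in Ctrl at 20 weeks, with Ctrl library 4 among the OE values. Its log2 fold change there was 0.42 ± 0.19 (unadjusted p = 0.044, adjusted p = 0.996), and -0.21 ± 0.19 at 8 weeks. Log2 fold changes of OE against Ctrl ran from -0.90 (Gdf3) to 1.17 (Bmp7) at 20 weeks and from -0.37 (Smad7) to 0.78 (Gdf3) at 8 weeks. The medians of the 49 were 0.10 and 0.05, beside 0.02 and 0.00 over all genes. The 95% interval was the log2 fold change plus or minus its approximate error times the t quantile at 12 degrees of freedom. It lay within 2-fold either way for 35 members at 20 weeks and 40 at 8 weeks. A 2-fold difference was outside the interval for those and was inside it for the rest. Tgfb1 was at -0.16 ± 0.20 at 20 weeks and 0.00 ± 0.20 at 8 weeks, and Tgfbr1 at 0.01 ± 0.18 and 0.03 ± 0.18. Gdf3 was at -0.90 ± 0.94 and 0.78 ± 1.09, and Bmp7 at 1.17 ± 0.71 and 0.01 ± 0.68, with wide errors at their low counts. No member's OE and Ctrl libraries were separate at 20 weeks (1.24% of all genes were separate and higher in OE and 1.49% lower) or at 8 weeks (0.787% and 0.448%).

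**Figure D5:**
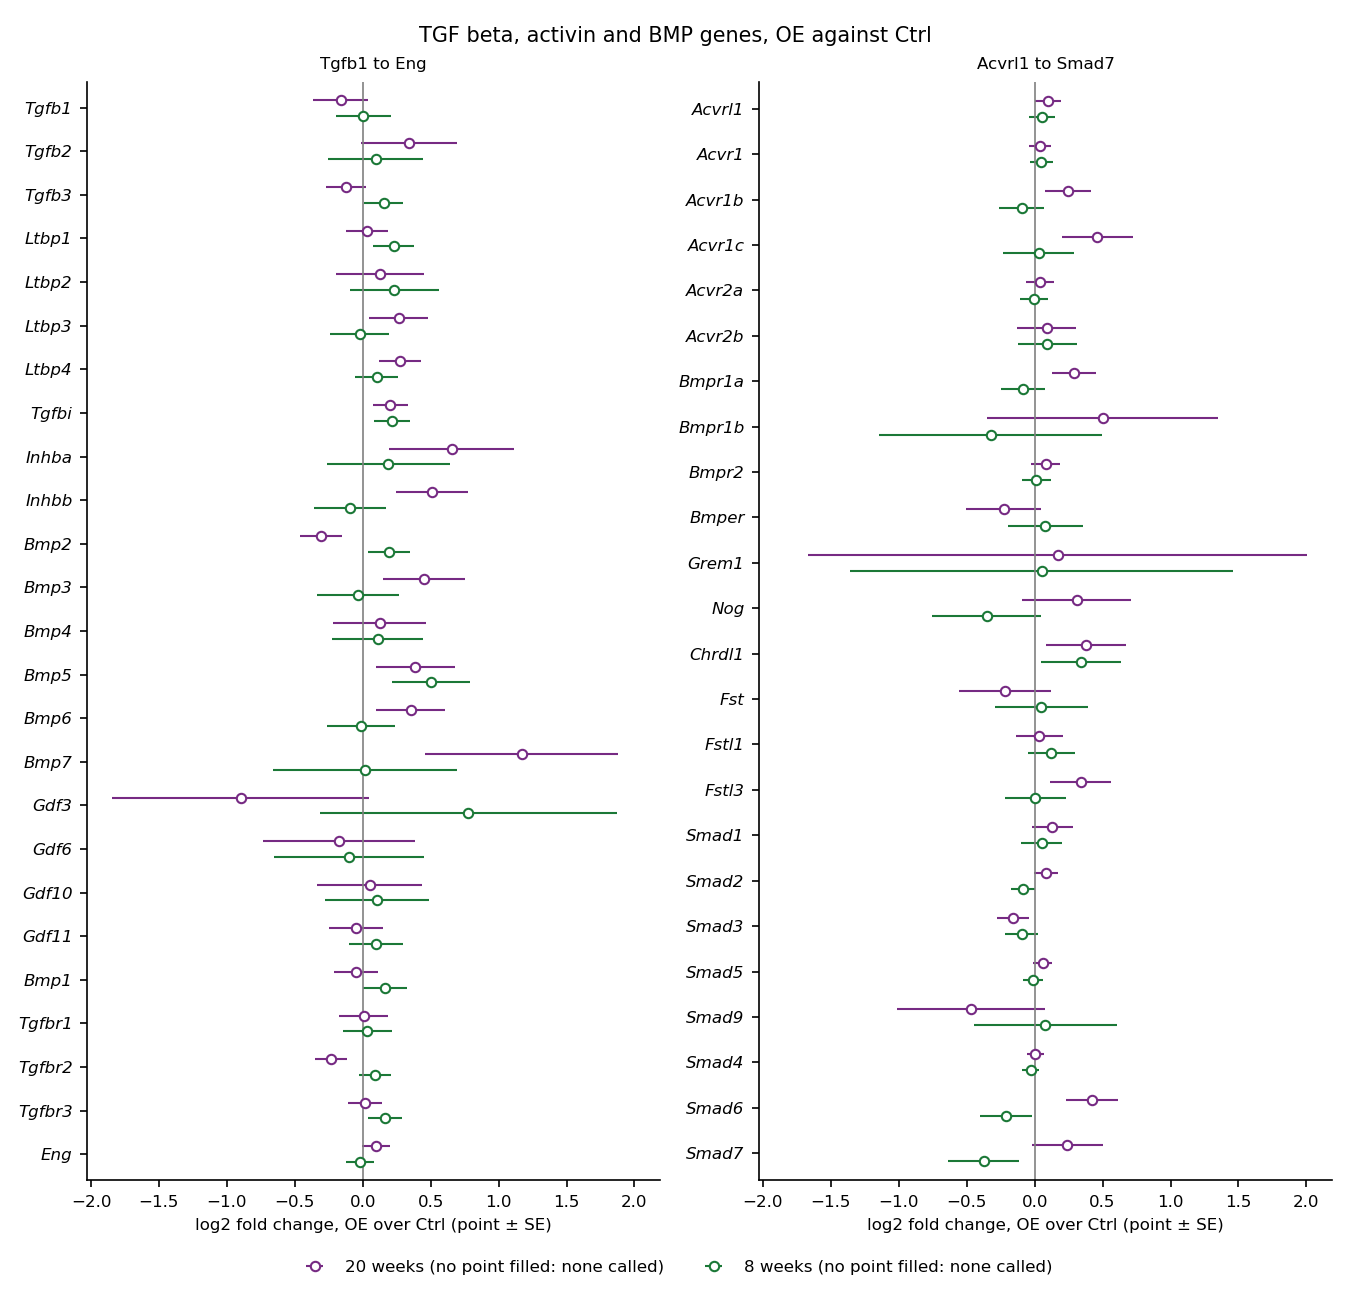
Log2 fold change of OE over Ctrl for each of the 49 members on the x axis, with its standard error as a bar, at 20 weeks in purple above 8 weeks in green. No point is filled, since none was called, and the widest bars are those of Grem1, Gdf3, Bmpr1b and Bmp7.

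Whether the change with age differed between genotypes was tested as an interaction, and 0 of 49 members were called with edgeR, as were 0 of all genes. Smad6 (0.63 ± 0.27, unadjusted p = 0.0346) and Bmp2 (-0.50 ± 0.22, unadjusted p = 0.04) had an unadjusted p under 0.05, as had 3.39% of all genes, with adjusted p = 0.982 for both. Members called in one genotype and not in the other were therefore not shown to differ between them. The interaction ran from -1.68 ± 1.45 (Gdf3) to 1.16 ± 0.98 (Bmp7), and its 95% interval lay within 2-fold for 27 of the 49.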

How the data were processed

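The labels describe RNA from epididymal white adipose tissue (RNeasy), libraries from a TruSeq stranded mRNA kit, and 4 mice in each of 4 groups. Per the submitters' processing notes, reads were demultiplexed with bcl2fastq 2.20.0, trimmed with Trimmomatic, aligned to mm10 with HISAT2 2.1.0 and quantified with StringTie 2.1.3b. The version of Trimmomatic, the annotation release and the strand setting of the counting are not given in the sources used here. The authors' deposited table holds, for 45777 genes, read counts (used in every test), the authors' TPM (used for levels and shares between genes) and the authors' FPKM (not used).

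Tests on the counts used edgeR 4.0.16 in R 4.3.3, on genes kept by filterByExpr at a minimum count of 10 (19189 genes), TMM scaling, 1 mean per group over all 16 libraries and a robust quasi-likelihood F test with 12 residual degrees of freedom. DESeq2 1.42.0 and sva 3.50.0 gave alternatives, and Python 3.11.15 with matplotlib 3.10.9 the summaries and figures. The fits were also run on simulated data, and the outcome of that run is not given here. Benjamini-Hochberg adjustment ran over the genes tested, and an adjusted p under 0.05 counts as a call. Totals of 33.6 to 67.6 M counts limit the precision of members with few counts.

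The 49 members and the other lists were chosen with earlier results of these data known. Values in every library are given for Lta4h and for members called with at least a 2-fold change between ages, with an unadjusted p under 0.05 between genotypes or for the interaction, or among the 10 highest in mean TPM; Tgfb3, Inhbb and the 8-week values of Bmper and Gdf6 were added after their values were seen. The other members are given by fold change. Each other list is given by its counts and by some of its up to 4 called genes of smallest adjusted p per genotype. Of these, Bhlhe40, Twsg1, Sostdc1, Tll1, Bmp8a, Rgma and Bambi, which fell where called, were left out. So were Bgn and Snai1, which rose where called. Libraries were grouped by the labels, which give no batch and do not say whether mice shared a litter or cage. P-values set differences between groups against the spread between mice within groups. They take the mice as independent, which could not be checked. Exons of 14 members share bases with a gene on the other strand, the most in Fstl3 (47.3%, with Prss57) and Bmp5 (46.7%, with Gm26903) and at most 9.34% with any other single gene. Promoter sequences are from RefSeq on GRCm38.p6.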

Additional observations from a re-analysis of the deposited data

Results flagged for a closer look

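Of 196 sets of 4 libraries (49 members in 4 groups), 15 held a library far from the other 3 by Dixon's test, where chance flags about 5%. Tgfb3 had 25.1 CPM in library 1 of Ctrl at 8 weeks, the lowest of its group, against 35.1 to 36.8 CPM in the other 3. Bmpr1a had 164 CPM in library 1 of Ctrl at 8 weeks, the highest of its group, against 123 to 125 CPM in the other 3. Smad5 had 77.3 CPM in library 1 of Ctrl at 8 weeks, the lowest of its group, against 84.7 to 86.1 CPM in the other 3. Ltbp2 had 96.3 CPM in library 4 of OE at 20 weeks, the highest of its group, against 35.3 to 43.5 CPM in the other 3. Bmp4 had 9.18 CPM in library 1 of OE at 20 weeks, the highest of its group, against 3.56 to 3.74 CPM in the other 3. Gdf11 had 3.12 CPM in library 1 of OE at 20 weeks, the lowest of its group, against 4.10 to 4.17 CPM in the other 3. Grem1 had 0.270 CPM in library 1 of OE at 20 weeks, the highest of its group, against 0 to 0.0451 CPM in the other 3. Gdf6 had 5.08 CPM in library 1 of OE at 8 weeks, the highest of its group, against 1.42 to 1.57 CPM in the other 3. Gdf10 had 27.3 CPM in library 1 of OE at 8 weeks, the lowest of its group, against 86.3 to 97.8 CPM in the other 3. Grem1 had 0 CPM in library 1 of OE at 8 weeks, the lowest of its group, against 2.75 to 3.07 CPM in the other 3. Grem1 had 0.290 CPM in library 1 of Ctrl at 20 weeks, the highest of its group, against 0 CPM in each of the other 3. Chrdl1 had 187 CPM in library 4 of Ctrl at 8 weeks, the highest of its group, against 109 to 118 CPM in the other 3. Fst had 18.1 CPM in library 4 of Ctrl at 8 weeks, the highest of its group, against 6.27 to 8.28 CPM in the other 3. Fstl3 had 12.9 CPM in library 4 of Ctrl at 8 weeks, the lowest of its group, against 20.6 to 21.9 CPM in the other 3. Smad9 had 7.17 CPM in library 4 of Ctrl at 8 weeks, the highest of its group, against 1.57 to 2.46 CPM in the other 3. The libraries behind these flags were library 4 (4 flags) and library 1 (3 flags) of Ctrl at 8 weeks, library 1 of OE at 8 weeks (3), libraries 1 (3) and 4 (1) of OE at 20 weeks, and library 1 of Ctrl at 20 weeks (1).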

How the results depend on the processing

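Besides the reported fit, 25 alternatives were run: another scaling, no filter, DESeq2, a replicate block, 2 surrogate variables, only the groups compared, 3 sets of libraries left out together and each of the 16 libraries left out alone. No member was called between genotypes in any of the 25 at either age or in the 24 that allow an interaction, and Lta4h was called in all 25 at both ages (log2 fold change 1.56 to 1.65 at 20 weeks and 1.87 to 2.11 at 8 weeks). Over all genes DESeq2 called 60 between genotypes at 20 weeks, 16 at 8 weeks and 29 for the interaction, against 5, 4 and 0 with edgeR.

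The age counts depended on the setting. In OE 3 members rose, with 2 to 8 when each library was left out in turn, 5 without both libraries numbered 1 at 8 weeks and 8 without these and OE library 1 at 20 weeks. In OE 10 members fell, with 6 to 15 when each library was left out in turn. DESeq2 gave 16 and 2 surrogate variables gave 1. Without both libraries numbered 1 at 8 weeks 16 fell, and 19 without these and OE library 1 at 20 weeks. Counts over all genes moved too. In OE 1902 of all genes fell in the reported fit, 1014 without OE library 4 at 20 weeks and 2741 with DESeq2. With 2 surrogate variables 394 fell, and 3403 without both libraries numbered 1 at 8 weeks and OE library 1 at 20 weeks. In Ctrl 252 of all genes rose and 99 fell with 2 surrogate variables, against 3770 and 4083. In Ctrl 7 members rose, with 5 to 8 when each library was left out in turn, and 18 fell, with 11 to 20, and both counts were 0 with 2 surrogate variables. In that fit the Ctrl change with age turned its sign for Bmp1 (-0.015), Gdf10 (0.10), Smad6 (0.0053), Grem1 (1.69) and Ltbp4 (0.11), none of them called, and OE gained calls of Inhbb and Ltbp3. The cause was not tested. Results under an alternative were also labelled for single genes together with the counts of genes that rose or fell in the 7 lists. Of these, 3544 stayed the same, 215 kept direction and lost the call, 141 moved and 5 turned. These totals do not separate single genes from list counts.

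The other scaling kept all 13 OE and 25 Ctrl calls, DESeq2 kept 13 and 24, fitting only the groups compared kept 10 and 23, and no filter kept 11 and 20. DESeq2 added 7 calls in OE (Bmp5, Bmp7, Bmpr1a, Bmpr1b, Inhbb, Smad5 and Tgfbr3) and Inhba and Tgfb2 in Ctrl. Bmp7, Bmpr1a, Bmpr1b and Smad5 were thus called in both genotypes with DESeq2. Over all genes, DESeq2 called 2847 higher and 2741 lower in OE, against 2509 and 1902 in the reported fit. The other scaling added Smad5 and Tgfbr3 in OE, and fitting only the groups compared added Inhba in Ctrl. The labels number the mice 1 to 4 in every group without saying that a number marks anything shared, and same-numbered libraries did not deviate together throughout (r of their deviations from the group means -0.571 to 0.0831 between ages in OE, -0.146 to -0.0635 in Ctrl, and 0.826 for number 1 but -0.198 for number 2 between genotypes at 8 weeks), so the numbers were not taken as pairs. With the replicate block 11 of the 13 OE calls remained, without Gdf10 and Ltbp4, and 20 of the 25 Ctrl calls, without Bmpr1b, Fstl1, Grem1, Smad4 and Smad6, while Tgfb2 was added in Ctrl.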

Other observations

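Among ligands of the family outside the 49, Mstn, myostatin, a ligand known for limiting muscle growth, had 2.95, 2.40, 3.51 and 1.65 CPM in OE at 20 weeks, against 0.297, 0, 0.207 and 0.153 CPM in OE at 8 weeks. In Ctrl, Mstn had 2.26, 1.25, 1.73 and 2.996 CPM at 20 weeks, against 2.74, 0.238, 0.272 and 0.0541 CPM at 8 weeks. The ages were separate in OE, while library 1 of Ctrl at 8 weeks lay among the 20-week values. The log2 fold change of Mstn with edgeR was 3.97 ± 1.04 in OE (adjusted p = 0.014) and 1.34 ± 0.92 in Ctrl (adjusted p = 0.256), and the difference between these (2.63 ± 1.33, adjusted p = 0.982) was not called.

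Gdf5, a ligand known from joint development, had 1.87, 0.370, 0.498 and 0.744 CPM in OE at 20 weeks, against 1.39, 1.83, 1.33 and 2.49 CPM in OE at 8 weeks. In Ctrl, Gdf5 had 0.521, 0.650, 0.176 and 0.627 CPM at 20 weeks, against 1.14, 1.51, 1.56 and 2.84 CPM at 8 weeks. Here OE library 1 at 20 weeks lay among the 8-week values, and the Ctrl ages were separate. The log2 fold change of Gdf5 was -1.02 ± 0.50 in OE (adjusted p = 0.16) and -1.84 ± 0.52 in Ctrl (adjusted p = 0.0132).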
